A study of Homo sapiens with 6 samples.

Results

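The genes described here are the ligands, receptors and SMADs of the TGF-beta pathway, with a classical secreted target, in HEY cells, a human ovarian cancer cell line. They are 10 genes of the 32679 in the gene table: the ligand genes TGFB1, TGFB2 and INHBA, the receptor genes TGFBR1 and TGFBR2, the signal transducers SMAD2, SMAD3 and SMAD4, the inhibitor SMAD7 and the matrix protein gene TGFBI. A search of the table by gene symbol found 9 of them. The row with the Ensembl ID of TGFB1 (ENSG00000105329) carries the clone name AC011462, which 5 rows of the table share, and it was used here as TGFB1 because its ID, transcripts and description are those of TGFB1. Expression was measured by paired-end RNA-seq of poly(A) RNA in 3 shNC samples, which carry a control hairpin and are labelled as untreated, and in 3 shPQBP1 samples, which carry a doxycycline-inducible hairpin against the splicing factor gene PQBP1 and received doxycycline at 1 µg per ml. The time label of all 6 samples is day 3. The hairpin lines were stable lentiviral lines selected with puromycin, and the knockdown rests on 1 hairpin construct. The hairpin against PQBP1 and the drug were always present together, and what each contributed cannot be told apart.

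TGF-beta ligands are made as precursors that are cut by furin and kept latent until they are activated outside the cell. The active ligand brings together a type II receptor (TGFBR2) and a type I receptor (TGFBR1), and the type I receptor phosphorylates SMAD2 and SMAD3, which join SMAD4 and enter the nucleus. SMAD7 is switched on by the pathway and blocks the type I receptor, so that it closes a negative feedback loop. Activin A, a dimer of the INHBA product, uses its own receptors but the same SMADs. In ovarian and other carcinomas the pathway is known both for growth arrest and for matrix production and a mesenchymal shift.

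The values are FPKM as deposited, fragments scaled to transcript length and to the mapped fragments of the sample. How many reads lie behind a value is unknown. Error is read from how far the 3 samples of each group lie apart, which limma adjusts toward the spread of genes at similar levels. The sum of FPKM over all genes ran from 278285.8 to 318484.3 per sample. The sample shNC 1 had the lowest correlations with the other samples (Pearson's r of log2 values across genes, 0.926 to 0.955), so values that moved by more than 1.5 times without it are also given without it. PQBP1 itself fell in every shPQBP1 sample, from a mean of 6.93 FPKM (SD 0.255, n = 3) to 1.61 FPKM (SD 0.151, n = 3), which is -2.04 on the log2 scale. The keratin genes KRT7, KRT8 and KRT18 and the Müllerian lineage gene PAX8 were expressed in both groups, and 6 of 9 epithelial and ovarian carcinoma markers had a mean of at least 1 FPKM, whereas MUC16 was at or near 0. Of these markers MSLN, a surface antigen gene of ovarian carcinoma, was called higher (13.5 against 23.8 FPKM, adjusted p = 0.0187 from limma), while PAX8 (14.3 against 20.8) did not pass and WT1 (0.673 against 0.367) lay under the filter, both without overlap between the groups. Whether these shifts bear on the values below was not tested. The mesenchymal marker VIM had 1170 FPKM in shNC and 1300 in shPQBP1 samples, CDH2 had 21.5 and 23.5, and ZEB1 had 4.51 and 7.96. None of these 3 passed (adjusted p = 0.217, 0.357 and 0.157 from limma). VIM and ZEB1 had groups that did not overlap, as did 34.4% of all genes tested. Of the 3 leukocyte markers with a row, PTPRC was listed at 0 in every sample and CD68, which other cells also express, had 9.12 to 15.57 FPKM in shNC and 12.14 to 21.16 in shPQBP1 samples. Of 4 endothelial markers, CDH5 alone had a mean of at least 1 FPKM (2.52 in shNC and 3.43 in shPQBP1 samples, no overlap). PECAM1, under the filter, was lower in shPQBP1 samples (0.24 against 0.0367 FPKM, no overlap). The 5 fibroblast markers summed to between 0.16 and 0.72 FPKM in shNC and between 0.08 and 0.77 in shPQBP1 samples. In bulk samples, fewer cells that express a gene and less RNA of it per cell cannot be told apart.

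In shPQBP1 cells the receptor gene TGFBR2 rose by 33.2% and the inhibitor gene SMAD7 fell by 33.7%. These were the 2 of the 10 genes with an adjusted p under 0.05 in a limma fit over all 11413 genes with a mean of at least 1 FPKM, of which 2.91% passed (1.73% higher and 1.18% lower). Without a correction for multiple testing, 6 of the 10 genes had a p under 0.05, and 23.6% of all genes tested did. The same 6 genes had groups that did not overlap, TGFBR2 and INHBA higher and TGFB1, TGFB2, SMAD7 and TGFBI lower in shPQBP1 samples, where 34.4% of all genes tested had such groups. At the threshold of the study's methods, more than 2-fold up or down at p under 0.05 before adjustment, the limma fit called 0 of the 10, and 1.52% of all genes. The median log2 fold change was -0.09 over the 10 genes and 0.02 over all genes tested. All 10 genes passed the filter on low values, although the mean of TGFB2 in the shPQBP1 samples alone, 0.777 FPKM, lay under it. With 3 samples against 3, the exact permutation test of a single gene cannot go below p = 0.1 (two-sided).

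**Figure D1:**
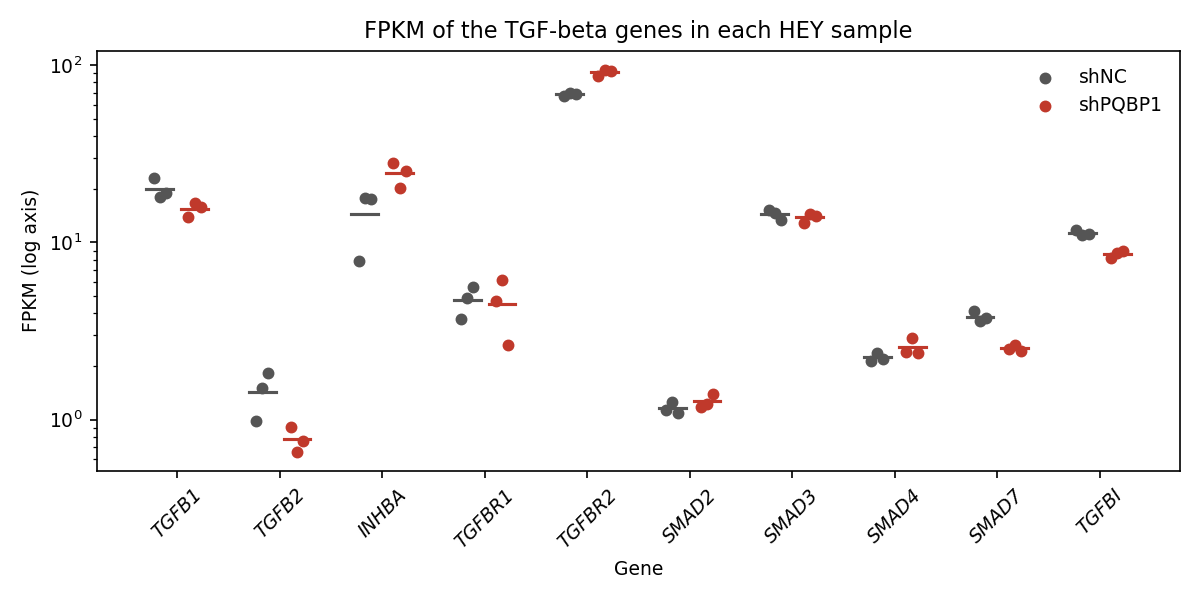
FPKM (log axis) of the 10 TGF-beta pathway genes in each of the 3 shNC (grey) and 3 shPQBP1 (red) samples, with bars at the group means. TGFBR2 is the highest of the 10 in every sample, and the red points of TGFBR2 lie above, and those of SMAD7 below, all grey points of the same gene.

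The promoters of the 2 called genes are shown because these genes differ in direction. Both windows run from 250 bases before to 50 bases after the RefSeq start (GRCh38.p14), and capitals mark matches on either strand to CAGAC, a core of the DNA element bound by SMAD3 and SMAD4, or to TGANTCA, the AP-1 element. The first lies at chr18:48950916-48951215 on the minus strand, and the second at chr3:30606351-30606650 on the plus strand.
SMAD7: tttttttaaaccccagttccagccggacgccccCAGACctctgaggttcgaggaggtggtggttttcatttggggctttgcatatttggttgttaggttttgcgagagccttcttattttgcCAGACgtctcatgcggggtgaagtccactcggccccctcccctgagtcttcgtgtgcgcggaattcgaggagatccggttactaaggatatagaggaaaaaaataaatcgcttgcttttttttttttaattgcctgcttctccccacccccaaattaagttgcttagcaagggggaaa
TGFBR2: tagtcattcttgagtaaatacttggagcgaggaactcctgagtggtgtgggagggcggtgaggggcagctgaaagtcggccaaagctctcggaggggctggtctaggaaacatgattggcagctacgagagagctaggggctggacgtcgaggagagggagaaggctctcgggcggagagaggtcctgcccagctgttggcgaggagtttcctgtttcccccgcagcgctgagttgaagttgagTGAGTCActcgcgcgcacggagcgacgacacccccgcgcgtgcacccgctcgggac
The SMAD7 window held CAGAC at 2 places, which start 217 and 128 bases before the start of transcription, and no AP-1 element. The TGFBR2 window held no CAGAC and 1 AP-1 element, 6 bases before the start. CAGAC is short and stands in 45.3% of the 35116 promoter windows of this length, and TGANTCA in 7.71%. Of the 10 genes, 5 held CAGAC and 1 held TGANTCA in the window nearest the GENCODE gene start, and 0 held the palindrome GTCTAGAC, which 0.202% of all windows hold. A match in these windows is a description of the letters and not a measured binding site.

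Among the ligand genes, both TGF-beta genes were lower and INHBA was higher in shPQBP1 samples, but none of the 3 passed the adjusted threshold. TGFB1 (chromosome 19, 41301587 to 41353922, minus strand of hg38) encodes the most widely expressed TGF-beta. Its FPKM was 23.04, 17.97 and 18.96 in the shNC samples and 13.97, 16.63 and 15.82 in the shPQBP1 samples. The groups did not overlap, and the highest value was that of shNC 1. This was a log2 fold change of -0.36 (95% interval -0.66 to -0.06, adjusted p = 0.155 from limma), which was -0.26 without shNC 1. TGFB1 is overlapped on the other strand by CCDC97, TMEM91 and HNRNPUL1, and whether the counting used strand is not given in the sources used here.

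TGFB2 (ENSG00000092969, chromosome 1, 218345336 to 218444619, plus strand) encodes a ligand that needs a co-receptor for strong binding to TGFBR2. It was near the limit of the filter, with 0.98, 1.5 and 1.83 FPKM in the shNC samples and 0.91, 0.66 and 0.76 in the shPQBP1 samples. The lowest shNC value, in shNC 1, lay just above the highest shPQBP1 value. The log2 fold change was -0.78 (95% interval -1.40 to -0.16, adjusted p = 0.147 from limma). It was -1.01 without shNC 1 (adjusted p = 0.06 from limma) and -0.44 with a pseudocount of 1. When GC content and transcript length were regressed out of each sample (the GC and length correction), it was -0.91 and passed the threshold (adjusted p = 0.0428 from limma). More genes passed in that fit, 938 of 11385, against 332 of 11413 without the correction. Over the 14 alternatives that gave a value, the adjusted p of TGFB2 from limma ran from 0.0428 to 0.326.

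INHBA (ENSG00000122641, chromosome 7, 41667168 to 41705834, minus strand), the gene of the activin A subunit, had 7.89, 17.81 and 17.69 FPKM in the shNC samples and 27.90, 20.38 and 25.22 in the shPQBP1 samples. The groups did not overlap, and shNC 1 stood far below the other 5 samples. The log2 fold change was 0.84 (95% interval 0.03 to 1.65, adjusted p = 0.202 from limma), and it was 0.45 without shNC 1 (adjusted p = 0.143 from limma). INHBA-AS1 overlaps it on the other strand, as TGFB2-AS1 does TGFB2.

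Of the receptor genes, TGFBR2 passed the threshold and TGFBR1 did not, but the ratio of the pair within samples had overlapping groups. TGFBR2 (ENSG00000163513, chromosome 3, 30606601 to 30694142, plus strand), which encodes the type II receptor that binds the ligand first, had 67.42, 69.46 and 68.63 FPKM in the shNC samples and 86.43, 94.15 and 93.20 in the shPQBP1 samples. The shNC values lay close together and every shPQBP1 value stood well above them. Its change was 0.41 on the log2 scale (standard error 0.07, 95% interval 0.25 to 0.57, adjusted p = 0.0328 from limma), and the level of TGFBR2 was at percentile 96.3 of the genes tested. After the GC and length correction it was 0.42 (adjusted p = 0.0101 from limma). The call was kept without shNC 1 (adjusted p = 0.0351 from limma) and lost without shNC 2 (0.0877), shNC 3 (0.118), shPQBP1 1 (0.0994), shPQBP1 2 (0.134) or shPQBP1 3 (0.151), with log2 fold changes from 0.39 to 0.45 in these fits. It was also lost when every gene above 0 in any sample was tested (0.0682) and with no mean-variance trend (0.0548). Over the table, 30 to 93 genes were called in each left-out fit that lost it. Without shNC 1 there were 464, and with all samples 332.

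TGFBR1 (ENSG00000106799, chromosome 9, 99104038 to 99154192, plus strand), the gene of the type I receptor kinase, had 3.68, 4.84 and 5.64 FPKM in the shNC samples and 4.70, 6.13 and 2.64 in the shPQBP1 samples. The shPQBP1 samples held both the highest and the lowest value, and the groups overlapped. Between the groups the log2 fold change was -0.13 (95% interval -0.91 to 0.65, adjusted p = 0.817 from limma), an interval too wide to tell a change of the size seen in TGFBR2 from none. It was -0.29 without shNC 1.

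The transducers SMAD2, SMAD3 and SMAD4 had overlapping groups. SMAD3 (ENSG00000166949, chromosome 15, 67063763 to 67195173, plus strand), which binds DNA directly, had 15.29, 14.74 and 13.36 FPKM in the shNC samples and 12.94, 14.51 and 14.15 in the shPQBP1 samples. The log2 change was -0.06, with the narrowest 95% interval of the 3, from -0.28 to 0.16 (adjusted p = 0.69 from limma), and was -0.02 without shNC 1. SMAD2 (ENSG00000175387, chromosome 18, 47808957 to 47931146, minus strand), the partner receptor SMAD, had 1.13, 1.26 and 1.09 FPKM against 1.18, 1.23 and 1.40, or 0.12 on the log2 scale (95% interval -0.22 to 0.46, adjusted p = 0.613 from limma). SMAD4 (ENSG00000141646, chromosome 18, 51028528 to 51085045, plus strand), the common partner, had 2.15, 2.38 and 2.21 FPKM against 2.40, 2.90 and 2.38, a log2 fold change of 0.18 (95% interval -0.11 to 0.46, adjusted p = 0.382 from limma). The small differences of SMAD2 and SMAD4 changed sign, to -0.34 and -0.03, after the GC and length correction. The level of SMAD2 depends on the transcript length used for FPKM, which is not given in the sources used here: its canonical transcript in GENCODE release 44 is 34626 bases long, against 6464 for SMAD3.

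SMAD7 (ENSG00000101665, chromosome 18, 48919853 to 48950965, minus strand), the feedback inhibitor, had 4.09, 3.59 and 3.76 FPKM in the shNC samples and 2.50, 2.63 and 2.45 in the shPQBP1 samples. The 3 shPQBP1 values lay close together and all under the lowest shNC value. The log2 fold change was -0.57 (standard error 0.09, 95% interval -0.80 to -0.35, adjusted p = 0.0345 from limma). After the GC and length correction it was -0.43 (adjusted p = 0.0234 from limma). As for TGFBR2, the call was kept without shNC 1 (adjusted p = 0.0429 from limma) and lost without shNC 2 (0.0819), shNC 3 (0.118), shPQBP1 1 (0.148), shPQBP1 2 (0.125) or shPQBP1 3 (0.158), with log2 fold changes from -0.62 to -0.52 in these fits. It was also lost when every gene above 0 in any sample was tested (0.0758).

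TGFBI (ENSG00000120708, chromosome 5, 136028988 to 136063818, plus strand), a secreted matrix protein named for its induction by TGF-beta, had 11.83, 10.99 and 11.23 FPKM in the shNC samples and 8.14, 8.67 and 8.96 in the shPQBP1 samples. All shPQBP1 values lay under all shNC values, by -0.40 on the log2 scale (standard error 0.08, 95% interval -0.59 to -0.21). The adjusted p of 0.0552 from limma lay just above the threshold. It was 0.0495 with median-of-ratios scaling and 0.0494 with quantile normalization, and between 0.0576 and 0.2 with 1 sample left out.

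**Figure D2:**
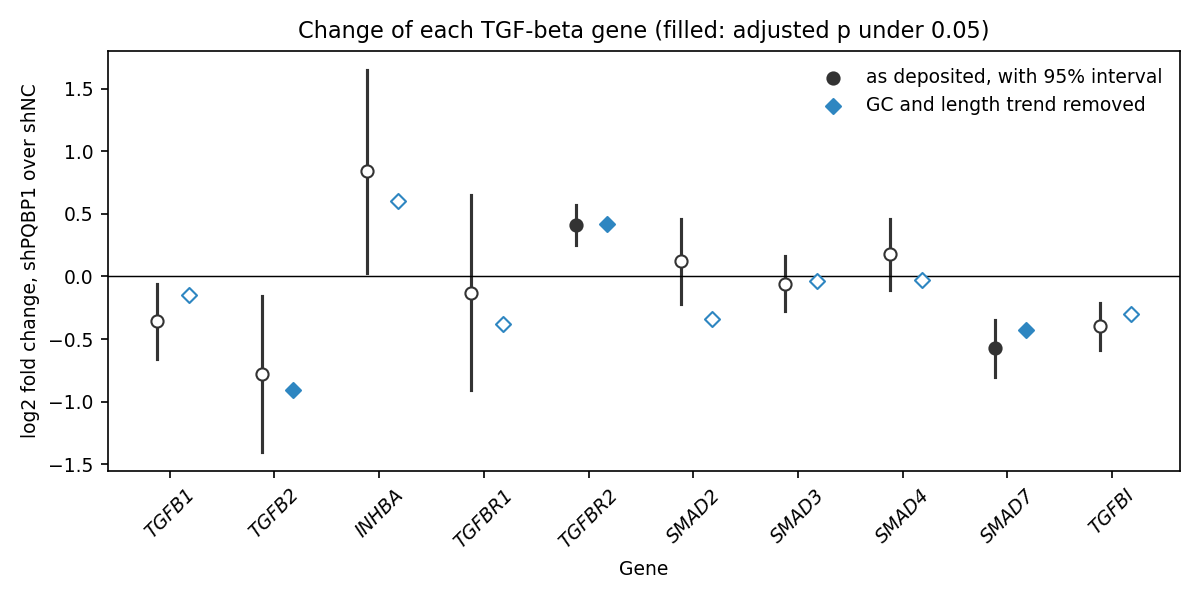
Log2 fold change of each gene, shPQBP1 over shNC, as deposited (circles, with the 95% interval from limma) and after the GC and length correction (diamonds), filled where the adjusted p was under 0.05. TGFBR2 and SMAD7 are filled in both, TGFB2 only after the correction, and SMAD2 and SMAD4 cross 0.

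GC content moved with the changes over the whole table: across the 11385 tested genes with a transcript in GENCODE, Spearman's rho of log2 fold change and transcript GC content was -0.459 (genes are not independent replicates). The transcripts of the members that were lower without overlap had a GC content of 63.6% (TGFB1), 57.0% (SMAD7), 53.1% (TGFBI) and 42.2% (TGFB2). Those of the higher members TGFBR2 and INHBA had 47.0% and 39.1%, and the median of the tested genes was 47.5%. After the correction, the log2 fold changes of TGFB1 (-0.15), INHBA (0.60), SMAD7 (-0.43) and TGFBI (-0.30) lay closer to 0 than before. The adjusted p of TGFBI was then 0.0518 from limma. TGFBR2 and TGFB2 were at least as far from 0 as before.

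In the shNC samples the order of the mean levels was TGFBR2 (68.5 FPKM), TGFB1 (between 17.97 and 23.04), INHBA and SMAD3 (14.5 each), TGFBI (11.3), TGFBR1 (4.72), SMAD7 (3.81), SMAD4 (2.25), TGFB2 (1.44) and SMAD2 (1.16). The sample values of INHBA overlapped those of SMAD3 and TGFBI, those of TGFBR1 overlapped SMAD7, and those of TGFB2 overlapped SMAD2. FPKM is per length, but the transcript lengths used are not given for any gene, so this order is approximate, most of all for SMAD2. Whether the genes that overlap TGFB1 or the GC content of each transcript bear on it was not tested.

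Ratios of a pair of genes within 1 sample depend little on how the samples were scaled, and 4 of them were compared. The log2 ratio of SMAD7 to SMAD3 was -1.88, -2.01 and -1.80 in the shNC samples and -2.33, -2.42 and -2.48 in the shPQBP1 samples, a difference of -0.51 with no overlap between the groups (two-sided exact permutation test, p = 0.1, adjusted p = 0.267 over the 4 ratios). The feedback inhibitor was thus lower relative to the transducer in every shPQBP1 sample. The ratios of TGFBR1 to TGFBR2, TGFB2 to TGFB1 and SMAD3 to SMAD2 had overlapping groups, with differences of -0.54, -0.42 and -0.18 (exact permutation p = 0.2, 0.3 and 0.2). With 1 sample left out, the difference for TGFB2 to TGFB1 ran from -0.76 (without shNC 1) to -0.20 (without shNC 3), and that for TGFBR1 to TGFBR2 from -0.78 (without shPQBP1 2) to -0.19 (without shPQBP1 3). With a pseudocount of 1, the difference for TGFB2 to TGFB1 was -0.10. The difference for SMAD3 to SMAD2 was -0.12 without shNC 1. The difference for SMAD7 to SMAD3 ran from -0.57 to -0.47.

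**Figure D3:**
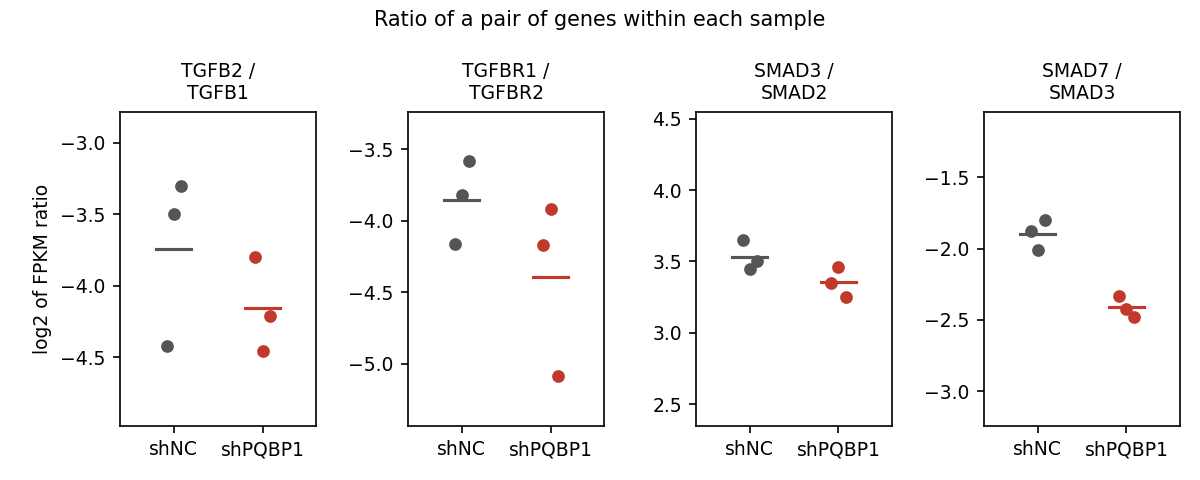
Log2 ratio of FPKM of a pair of genes within each sample, for the 3 shNC (grey) and 3 shPQBP1 (red) samples, with bars at the group means and every panel spanning the same range of log2 units. The groups separate in the ratio of SMAD7 to SMAD3 and overlap in the other panels.

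The wider pathway was read from a list of 108 other ligands, receptors, SMADs, regulators and targets, of which 105 had a row and 67 were tested. At an adjusted p under 0.05, 2 were higher (GREM1 and FN1) and 2 were lower (FURIN and IL11), 5.97% of the 67 against 2.91% of all genes. At an unadjusted p under 0.05 there were 25 (37.3%, against 23.6% of all genes), 12 higher and 13 lower. The median log2 fold change was 0.08. After the GC and length correction 12 of the list were called. That fit called 938 of 11385 genes over the table, against 332 of 11413 without the correction. The rise of FN1 was already known when the list was written. Of the 87 genes that the deposited table assigns to the KEGG TGF-beta signaling pathway, 57 were tested and 3 passed (5.26%), namely TGFBR2, SMAD7 and GREM1. Without the members, 48 were tested and 1 passed (2.08%, against 2.91% of all genes). At an unadjusted p under 0.05 there were 25.0% of these 48, against 23.6% of all genes.

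FURIN, the protease that cuts TGF-beta precursors, fell from between 9.34 and 10.32 FPKM in the shNC samples to 6.07, 7.36 and 6.31 in the shPQBP1 samples (log2 fold change -0.58, adjusted p = 0.041 from limma), and lost the call whichever sample was left out (adjusted p = 0.0592 to 0.167 from limma). It was the only called gene among 9 tested genes of latency and activation. The fibrillin gene FBN2, whose product holds latent ligand in the matrix, had a log2 fold change of 0.29 and the integrin gene ITGAV one of 0.62, neither past the threshold (adjusted p = 0.131 and 0.217 from limma). The value of ITGAV was 0.32 without shNC 1. Of the ligand genes outside the 10, 4 were tested and 0 passed in limma, with 3 at an unadjusted p under 0.05, which 23.6% of all genes tested reached. Among them GDF15, a stress-induced family member, had a log2 fold change of 0.38 and GDF11, an activin-like ligand, one of -0.34 (adjusted p = 0.132 and 0.0913 from limma). Both passed after the GC and length correction, at 0.60 and -0.37 (adjusted p = 0.0124 and 0.0334 from limma). Of the 14 alternatives, each of these genes passed in this 1 only. TGFB3, the remaining TGF-beta gene, lay under the filter at 0.147 and 0.143 FPKM.

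GREM1, a secreted antagonist of BMP ligands, rose from 2.82, 3.25 and 3.50 FPKM to 8.43, 8.32 and 9.10 (log2 fold change 1.41, standard error 0.11, adjusted p = 0.00479 from limma). All 3 shPQBP1 values were more than 2 times the highest shNC value, and the call was kept whichever sample was left out. The other 5 tested antagonists did not pass, among them the activin-binding follistatin gene FST (log2 fold change -0.57, adjusted p = 0.0917 from limma), BAMBI, a decoy receptor (0.15), and FSTL1 (0.11).

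None of the 7 other receptor genes and 3 other SMAD genes tested passed the threshold in limma. Only 1 of them, the BMP type II receptor gene BMPR2, had an unadjusted p under 0.05, which 23.6% of all genes tested reached. BMPR2 stood at 0.52 on the log2 scale (adjusted p = 0.127 from limma). ENG, a co-receptor gene and the highest of these at a similar level in both groups, had -0.01, and ACVR1, a type I receptor gene, had -0.52 (adjusted p = 0.244 from limma), which was -0.30 without shPQBP1 1. The BMP-branch transducers SMAD1 and SMAD5 had 0.21 and -0.16, with an adjusted p of 0.334 and 0.829 from limma. SMAD1 had 0.10 without shNC 1, and SMAD5 ran from -0.54 to 0.14 with 1 sample left out. Of 17 tested intracellular regulators 0 passed in limma, with 3 (17.6%, against 23.6% of all genes) at an unadjusted p under 0.05. SMURF2, an E3 ligase that works with SMAD7 on the type I receptor, had a log2 fold change of 0.26, and of 0.13 without shNC 1. STRAP, a receptor-binding adaptor, had -0.18, and -0.05 without shPQBP1 1.

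Of the 21 targets of the pathway tested, 1 was called higher and 1 lower (9.52%, against 2.91% of all genes). At an unadjusted p under 0.05 there were 5 higher and 6 lower (52.4%, against 23.6% of all genes). FN1, which encodes fibronectin, rose by 1.72 on the log2 scale, from 42.51, 44.57 and 43.08 to 127.42, 154.68 and 149.54 FPKM (adjusted p = 0.00176 from limma). It kept its call whichever sample was left out. IL11, a cytokine gene induced by TGF-beta in many cells, fell from 2.58, 1.78 and 2.43 to 0.77, 1.08 and 0.77 FPKM (log2 fold change -1.28, adjusted p = 0.0343 from limma), and lost its call whichever sample was left out (adjusted p = 0.0597 to 0.145 from limma). The mean of IL11 in the shPQBP1 samples alone, 0.873 FPKM, lay under the filter, which it passed through the shNC samples. The most abundant targets of the list did not pass: CCN1 and CCN2, matricellular genes shared with YAP signalling, had log2 fold changes of 0.22 and 0.36 (adjusted p = 0.116 and 0.0818 from limma). Both passed after the GC and length correction (adjusted p = 0.0145 and 0.00779 from limma) and without shNC 1 (0.042 and 0.0393). With any other sample left out neither passed (adjusted p from limma of 0.178 to 0.298 for CCN1 and 0.15 to 0.219 for CCN2). For both, the shNC and shPQBP1 samples did not overlap, as in 34.4% of all genes tested.

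**Figure D4:**
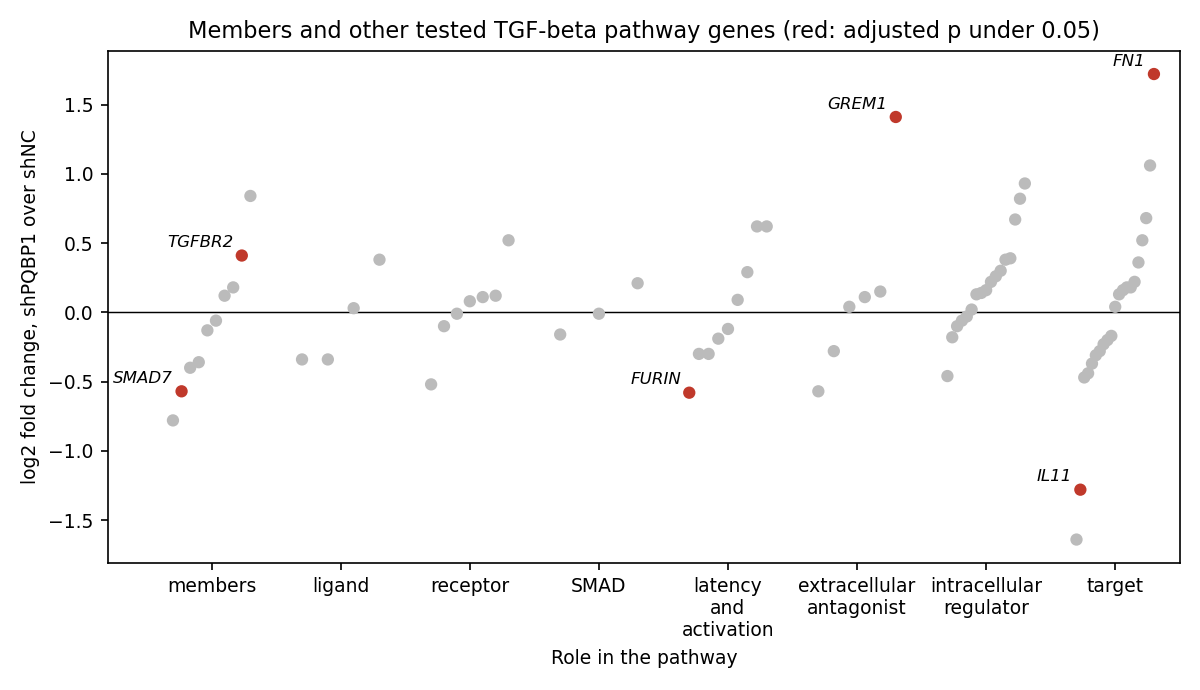
Log2 fold change, shPQBP1 over shNC, of the 10 genes (members) and of the 67 other tested pathway genes by role, each point a gene, sorted within a role and red where the adjusted p from limma was under 0.05. Called genes lie on both sides of 0, from -1.28 (IL11) to 1.72 (FN1).

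The genes whose log2 values followed those of TGFBR2 most closely over the 6 samples were PANX1, FAM200C (named ZBED8 in the table) and MTSS1, and those closest to SMAD7 were INCENP, TIMM22 and APOO (Pearson's r of 0.998 or higher in each case, n = 6 samples). The 6 samples fall into 2 groups and every other tested gene was compared, so these values are given as a description.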

How the data were processed

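HEY cells were profiled by RNA-seq in 3 shNC and 3 shPQBP1 samples, described by the submitters as biological triplicates. Per the submitters' processing notes, reads were aligned against hg38 using HISAT2 2.2.0, SAMtools 1.9 handled the alignments and StringTie 1.3.0 estimated expression. The authors deposited 1 table of FPKM values per gene and sample, rounded to 2 decimals. The annotation release is not given in the sources used here. The table's columns of the authors' own edgeR comparison (fold changes, p-values, q-values and calls) were not used. A search for whole-read steps in the low values of single-exon genes used GENCODE lengths, not the unstated lengths behind the FPKM. It could therefore not decide on depth, which is unknown.

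Genes were tested on log2(FPKM + 0.1), a scale that understates changes of low genes, with limma 3.58.1 in R 4.3.3, using eBayes with its trend option, two-sided p-values and Benjamini-Hochberg adjustment. The 11413 genes whose FPKM averaged 1 or more were kept. The study's methods name edgeR, a count test that could not be run on FPKM. Intervals are limma's 95% intervals. The members, lists and tests were chosen with earlier results of these data known. Named genes are the 10 members, PQBP1, the pathway genes at an adjusted p under 0.05, the 2 most abundant tested genes of each role, and the 3 genes most correlated with each of the 2 members of smallest p. Other genes are named to complete a count or were named after their values were seen. Positions, overlaps, GC content and lengths come from GENCODE release 44 (hg38), and promoter windows from RefSeq (GRCh38.p14, 10 of 10 genes matched). For the correction, each sample's log2 values were regressed on natural splines (5 degrees of freedom each) of GC content and log length. Some listed pathway genes are not reported here, and the counts of the list leave them out. The fit was tested on simulated data. Exact tests used Python 3.11.15. Alternatives changed the scaling, filter, pseudocount, trend, replicate block or the samples.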

Additional observations from a re-analysis of the deposited data

How the results depend on the processing

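The direction of TGFB1, TGFB2, INHBA, TGFBR2, SMAD3, SMAD7 and TGFBI was the same under every alternative run. Both other filters, the fit without limma's trend and the replicate block cannot move a fold change, so they say nothing on direction. In 122 of the 144 comparisons of a member under an alternative both direction and call were kept, but most of these are of members not called in the main fit. The call was kept in 7 of 15 alternatives for TGFBR2 and in 7 of 14 for SMAD7. Of the 10 genes, 2 were called, and this count was 0 under a filter that keeps any gene with a value above 0, 1 at a mean FPKM of at least 10 (where only 4 of the 10 are tested), 1 without limma's trend, 3 under both other scalings and after the GC and length correction, and 0 to 2 with 1 sample left out. Over all genes, the wider filter called 190 of 30717, the stricter filter 211 of 3661 and the fit without trend 382 of 11413. The other scalings called 362 and 417 of 11413, and the GC and length correction 938 of 11385. Without shNC 1, 464 genes were called, and 30 to 93 without any other sample, against 332 with all samples. The count of members at an unadjusted p under 0.05, 6, was 3 at a mean FPKM of at least 10 and 3 to 6 with 1 sample left out. The count of 4 other pathway genes was 2, 1 and 12 with the wider filter, the stricter filter and the GC and length correction, and 2 to 4 with 1 sample left out. SMAD2 and SMAD4 reversed under that correction, to -0.34 and -0.03, and TGFBR1 ran from -0.39 to 0.20 with 1 sample left out, reversing without shNC 3 (0.01) and without shPQBP1 3 (0.20). The sample numbers did not pair the samples: deviations of same-numbered samples correlated at -0.186, -0.138 and -0.011. With the replicate block, 0 members and 0 other pathway genes were called. The log2 fold change of PQBP1, which the block cannot move, was -2.04 (adjusted p = 0.0686 from limma). Over the table that fit called 0 genes, against 332. The ratios within samples kept their sign under both other pseudocounts and with 1 sample left out. The replicate block cannot move their differences. The ratios were not computed under the GC and length correction, where SMAD2 stood at -0.34 and SMAD3 at -0.04. Causes were not tested.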

Other observations

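The name under which TGFB1 is listed is not the only one of its kind. Among the deposited rows, 66 of protein-coding genes carry the name of a genomic clone although their Ensembl ID has a symbol, and 26 of them have a mean of at least 1 FPKM. Among these, MKKS (40.4 FPKM, listed as AL034430), TOMM40 (22.7, AC011481) and TGFB1 (17.7, AC011462) have the highest means, so that a search by symbol misses them.

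Some targets of the pathway, named here after their values were seen, differed widely within a group. MYC had 32.12, 1.31 and 1.46 FPKM in the shNC samples and 13.95, 1.81 and 1.28 in the shPQBP1 samples. CDKN1A, a cell cycle inhibitor gene induced by TGF-beta and by p53, had 101.15, 87.08 and 87.01 FPKM in the shNC samples and 18.76, 79.36 and 16.95 under PQBP1 knockdown, or -1.64 on the log2 scale (adjusted p = 0.166 from limma). Its groups did not overlap, as in 34.4% of all genes tested. Dropping shPQBP1 2, the knockdown sample nearest the shNC values, gave -2.35 and a call (limma, adjusted p = 0.00928). Dropping any other sample gave between -1.67 and -1.24 and no call (limma, adjusted p of 0.206 to 0.383). SNAI2 had 7.30, 3.24 and 2.89 FPKM against 5.46, 7.11 and 16.59.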
